A study of Mus musculus with 40 samples.

Results

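The genes described are 44 that copy the genome or supply its building blocks, from origin recognition to the reduction of ribonucleotides. They were taken from a list by gene symbol, with 1 probe set per gene, the one with the highest mean over the arrays of its platform. Of the 44, 43 were measured in both experiments of the series, among 18193 genes on the array of the sorted cells, 17097 on the array of the ligand experiment and 16684 on both. Chaf1a was not named by either platform annotation and was not analysed here. No filter on low values was applied, so all 43 entered every test.

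The sorted experiment used CD4+ T cells of C57Bl/6 mice with a Foxp3-GFP reporter, kept in culture for 48 h. Its groups were activated Treg (CD45RBlow GFP+, given anti-CD3 and anti-CD28, 3 arrays), resting Treg (the same gate, unstimulated, 3 arrays) and resting conventional T cells (CD45RBhi GFP-, unstimulated, 2 arrays). Bone marrow is named as their source in the labels, and that entry was not used here. The ligand experiment used CD45RBlo Foxp3-YFP+ Treg of spleen and lymph nodes, also from C57Bl/6 mice. All of them received plate-bound anti-CD3 (1 µg/mL), dissolved anti-CD28 (2 µg/mL) and human IL-2 (100 U/mL), with either immobilised Sema4a-Ig or mouse IgG1 at 10 µg/mL. The KO genotype was Nrp fl/fl x Foxp3-YFP-iCre, in which the Foxp3 gene drives the Cre recombinase, and the WT genotype was Foxp3-YFPiCre, so both carried the Cre. Each genotype had 8 pairs of a Sema4a-Ig and an IgG1 array. The sources used here give no age of the mice, no stimulation time for the ligand experiment and no word on whether replicates came from separate animals or cultures. The p-values thus rest on a spread that may be only technical.

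Before a cell can copy its DNA, the origin recognition complex, Cdc6 and Cdt1 load the Mcm2 to Mcm7 ring onto origins in G1. At the start of S phase the Cdc7 kinase with its partner Dbf4, together with Mcm10, Cdc45 and the GINS complex, turns that ring into a running helicase. Polymerase alpha with primase starts each strand, the clamp Pcna is loaded by the Rfc complex and holds polymerases delta and epsilon on the template, and ribonucleotide reductase, thymidylate synthase and thymidine kinase supply deoxynucleotides. Most of these genes are transcribed by E2F factors once a cell leaves quiescence, which makes their RNA a common measure of how many T cells are entering the cell cycle. Sema4a, the ligand of the second experiment, is a semaphorin that binds neuropilin-1 (Nrp1) on Treg.

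The promoters shown are those of the 8 members that differed between activated and resting Treg, between resting Treg and conventional T cells, or with Sema4a-Ig in WT, since E2F factors act at promoters of such genes. The sequences are RefSeq windows of build GRCm38.p6, from 250 bases before to 50 bases after the annotated start, written in the direction of transcription. They are Rfc4 (chr16:23127681-23127980, minus strand), Rrm2 (chr12:24708004-24708303, plus strand), Mcm10 (chr2:5012742-5013041, minus strand), Pole2 (chr12:69228141-69228440, minus strand), Mcm5 (chr8:75109259-75109558, plus strand), Pold1 (chr7:44548766-44549065, minus strand), Cdc6 (chr11:98907901-98908200, plus strand) and Rrm1 (chr7:102441445-102441744, plus strand). Capitals mark the letters TTTNNCGC, a core of the E2F site, found on either strand.
Rfc4: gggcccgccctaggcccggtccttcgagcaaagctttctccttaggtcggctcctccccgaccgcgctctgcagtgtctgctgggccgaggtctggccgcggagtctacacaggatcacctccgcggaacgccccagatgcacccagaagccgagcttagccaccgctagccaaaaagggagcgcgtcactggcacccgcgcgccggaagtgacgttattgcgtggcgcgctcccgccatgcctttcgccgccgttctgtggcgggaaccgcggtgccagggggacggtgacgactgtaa
Rrm2: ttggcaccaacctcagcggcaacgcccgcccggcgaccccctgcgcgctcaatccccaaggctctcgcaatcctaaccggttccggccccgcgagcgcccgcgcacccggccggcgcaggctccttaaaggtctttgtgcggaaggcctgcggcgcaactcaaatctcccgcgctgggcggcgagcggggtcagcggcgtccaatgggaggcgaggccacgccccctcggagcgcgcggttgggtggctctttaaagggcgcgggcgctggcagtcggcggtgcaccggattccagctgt
Mcm10: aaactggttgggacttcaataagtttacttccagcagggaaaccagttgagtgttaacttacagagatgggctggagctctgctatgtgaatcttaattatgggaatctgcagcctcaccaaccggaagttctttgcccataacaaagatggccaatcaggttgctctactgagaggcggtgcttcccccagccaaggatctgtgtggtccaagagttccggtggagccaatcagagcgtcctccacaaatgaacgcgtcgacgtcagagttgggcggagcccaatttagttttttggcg
Pole2: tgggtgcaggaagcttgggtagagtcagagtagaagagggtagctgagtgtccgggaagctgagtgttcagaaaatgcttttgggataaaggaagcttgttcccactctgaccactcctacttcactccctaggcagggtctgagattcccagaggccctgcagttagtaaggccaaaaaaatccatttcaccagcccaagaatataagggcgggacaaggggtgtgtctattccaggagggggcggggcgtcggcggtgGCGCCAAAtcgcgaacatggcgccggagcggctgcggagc
Mcm5: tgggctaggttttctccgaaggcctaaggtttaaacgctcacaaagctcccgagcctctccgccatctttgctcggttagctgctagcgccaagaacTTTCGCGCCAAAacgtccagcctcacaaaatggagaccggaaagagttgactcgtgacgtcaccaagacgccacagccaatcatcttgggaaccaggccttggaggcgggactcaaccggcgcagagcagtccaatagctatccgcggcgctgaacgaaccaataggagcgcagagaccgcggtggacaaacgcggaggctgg
Pold1: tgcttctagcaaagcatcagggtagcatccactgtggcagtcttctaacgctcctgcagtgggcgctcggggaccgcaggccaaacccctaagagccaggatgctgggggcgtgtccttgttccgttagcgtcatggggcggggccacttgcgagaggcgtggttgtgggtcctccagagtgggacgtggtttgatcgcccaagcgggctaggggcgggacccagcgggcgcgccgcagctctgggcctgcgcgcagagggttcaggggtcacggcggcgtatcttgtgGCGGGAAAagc
Cdc6: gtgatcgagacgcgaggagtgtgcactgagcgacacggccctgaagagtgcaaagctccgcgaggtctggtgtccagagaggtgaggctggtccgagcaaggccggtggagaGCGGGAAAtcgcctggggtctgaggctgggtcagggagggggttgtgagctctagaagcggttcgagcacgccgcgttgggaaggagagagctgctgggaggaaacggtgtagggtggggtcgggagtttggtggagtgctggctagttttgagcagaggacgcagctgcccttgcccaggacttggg
Rrm1: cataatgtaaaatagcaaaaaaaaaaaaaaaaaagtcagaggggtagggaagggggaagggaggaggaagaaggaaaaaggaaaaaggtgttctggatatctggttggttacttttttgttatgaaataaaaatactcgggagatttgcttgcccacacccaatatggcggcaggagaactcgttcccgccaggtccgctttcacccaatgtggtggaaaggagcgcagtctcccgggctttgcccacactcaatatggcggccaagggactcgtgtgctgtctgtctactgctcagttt

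Of these 8 windows, Mcm5 held 2 overlapping matches on opposite strands, at -153 and -149 from the start. Pole2 (at 11), Pold1 (at 40) and Cdc6 (at -138) held 1 match each, and the windows of Rfc4, Rrm2, Mcm10 and Rrm1 held none. Of the 44 genes, 37 had at least 1 window, 45 windows in all, and 15 of the 45 (33.3%) held the E2F letters, against 5.17% of all 32851 windows. The letters CCAAT were in 25 of 45 (55.6%), against 37.4% of all windows, and TTTGAA, a form of the cell cycle element CHR, was in 9 of 45 (20%), against 17.9%. CCAAT and TTTGAA were also searched on both strands, and windows were counted for each motif whether or not matches of different motifs overlapped. The windows of the members were richer in G and C, with a median of 57.7%, against 52.7% over all windows. A match is a run of letters and not a measured site.

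Values are log2 signals and all changes are differences on that log2 scale, given with the standard error of limma's fit. Levels are compared between arrays for 1 probe set and not between genes. A gene was called at a Benjamini-Hochberg adjusted p under 0.05 over all genes of a comparison.

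In the sorted cells Foxp3 had a mean log2 signal of 10.81 in activated Treg, 10.44 in resting Treg and 4.0 in conventional T cells, as the sort was labelled. In the ligand experiment Foxp3 lay between 3.48 and 3.61 in the 4 groups, under the brightest of the 23 probe sets for nonspecific controls (3.95), so that platform gives no check of the cell type through Foxp3. The T cell genes Cd3e (8.60 to 8.73) and Cd4 (7.82 to 7.87) were above it there. Mean signals of the 43 members in that experiment ran from 5.53 for E2f1 to 11.72 for Pcna, all above 3.95. A measure of RNA quality split the sorted Treg arrays across the groups. The difference between the 3' and 5' probe sets of the beta-actin gene Actb reached 5.87 for activated replicate 1, 6.17 for activated replicate 2 and 5.90 for resting replicate 1, while activated replicate 3 (2.31), resting replicates 2 and 3 (2.50 and 2.67) and the conventional T cells (1.24 and 1.54) were low. WT Sema4a-Ig replicate 2 has a WT title and a KO genotype label and was grouped by its title. In the deposited values of the ligand experiment every pair of arrays had been set to 1 common mean per probe set (largest difference between pair means 6e-05). Levels therefore cannot be compared between genotypes, loss of Nrp1 cannot be checked, and only the Sema4a-Ig minus IgG1 differences of the 16 pairs were used.

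Activated and resting Treg were compared to ask what stimulation through CD3 and CD28 does. Activated Treg had more RNA of 5 replication genes that limma called, 1 at each of 5 steps: Rrm2 (deoxynucleotide supply), Mcm10 (origin firing), Pole2 (polymerase epsilon), Rfc4 (clamp loading) and Mcm5 (the helicase ring). None of the 43 was called lower. Over all genes 0.522% were called higher and 0.22% lower. The median change of the members was 0.54, with 37 of 43 positive, against a median of 0.00 over all 18193 genes. In bulk RNA such a difference cannot tell more cells in S phase from more RNA in each cell.

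Rrm2, the regulated small subunit of ribonucleotide reductase, had log2 signals of 10.83, 9.99 and 10.70 in activated Treg, against 7.65, 7.78 and 8.35 in resting Treg. All activated arrays lay above all resting ones, and the change was 2.58 ± 0.28 (adjusted p = 0.00982). Mcm10, which helps the assembled helicase start, had 7.42, 6.78 and 7.69 in activated Treg and 5.02, 4.72 and 4.77 in resting Treg, a change of 2.46 ± 0.24 (adjusted p = 0.00678). Its resting values lay close to those of conventional T cells (4.68 and 4.93), so that Mcm10 stood out in the activated arrays alone. Pole2, the second subunit of the leading-strand polymerase, had 8.36, 8.01 and 8.65 in activated Treg and 5.97, 6.43 and 6.84 in resting Treg (1.93 ± 0.25, adjusted p = 0.0192). Rfc4, a subunit of the clamp loader, had 9.55, 9.63 and 9.14 in activated Treg and 7.90, 7.26 and 8.18 in resting Treg (1.66 ± 0.27, adjusted p = 0.0402). For both genes the groups were apart by more than the range within either. Mcm5, a subunit of the ring, had 11.23, 11.42 and 11.37 in activated Treg and 9.86, 9.49 and 10.14 in resting Treg (1.51 ± 0.18, adjusted p = 0.0151). Cdc6, the loader of the ring, had the largest value among the members not called, 1.83 ± 0.81 (adjusted p = 0.446), above those of Rfc4 and Mcm5. Its signals were 5.48, 6.42 and 8.07 in activated Treg and 3.58, 4.43 and 6.48 in resting Treg. These groups overlapped, and replicate 3 was the highest of its group in both.

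**Figure D1:**
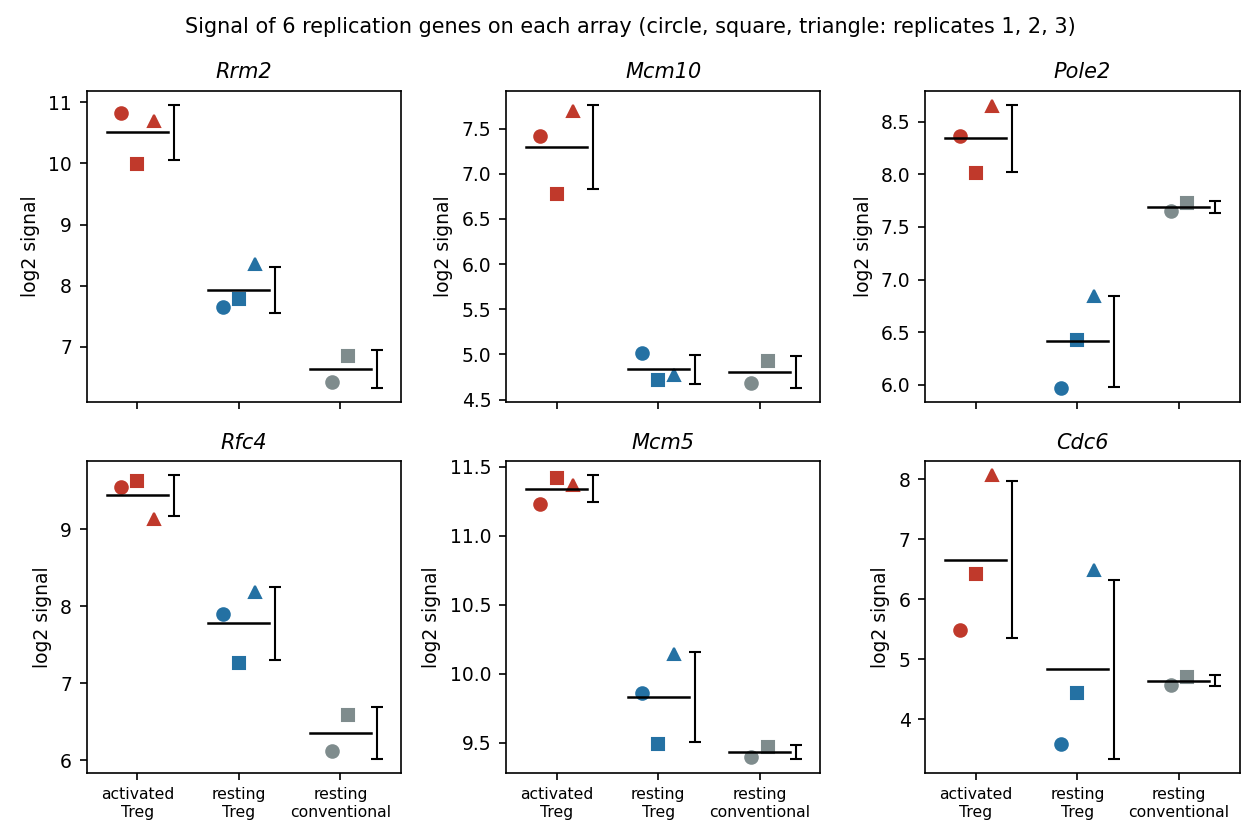
Log2 signal (vertical axis) of Rrm2, Mcm10, Pole2, Rfc4, Mcm5 and Cdc6 on each array of activated Treg, resting Treg and resting conventional T cells; symbols mark replicates, lines the group mean and bars ± 1 SD. In the first 5 genes every activated array lies above every resting Treg array, while the 2 groups overlap in Cdc6.

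The steps of replication did not all carry the same values. In the helicase ring all 6 genes were positive, between 0.18 and 1.51, and every ring gene except Mcm7 had its 3 activated arrays above its 3 resting ones. Among the 8 genes of origin firing the values ran from -0.75 for Gins3 to 2.46 for Mcm10, and among the 8 of the polymerases and primase from -0.43 to 1.93. The clamp and loader gave -0.31 to 1.66 (5 genes), licensing -0.12 to 1.83 with none of 5 called, and the fork and maturation genes 0.00 to 1.29 with none of 5 called. All 4 deoxynucleotide genes were positive (0.60 to 2.58) and so were both E2F factors, E2f1 (0.69) and E2f2 (0.47), neither of them called. Tyms, Rfc3 and E2f1 had low mean signals on these arrays (4.83, 5.08 and 5.24), for which no background level was determined. The values of Mcm10 in resting Treg and conventional T cells (4.68 to 5.02) were as low. In the ligand experiment another probe set was read for Tyms, Orc1, Mcm2 to Mcm7, Cdc45, Prim1, Pold1, Rfc3, Fen1, Rrm2 and E2f2. The smallest value was that of Rpa1, a subunit of the protein that coats single-stranded DNA, at 0.00 ± 0.13.

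In all, 18 of the 43 members (41.9%) had every activated array above every resting array, against 6.03% of all genes, and none had the reverse. Beside the genes already named these included Mcm2, Mcm3, Mcm4 and Mcm6, Gins1 and Gins2, Rfc5, Prim2, Pole, Fen1, Rrm1, Tyms and E2f1. The members were also read within each class of RNA quality. In the high Actb class (2 activated arrays against 1 resting) the median member difference was 0.55 with 36 of 43 positive, and in the low class (1 against 2) it was 0.87 with 38 of 43 positive. With the class as a block 11 members were called, including the 5, and calls over all genes rose as well. These class differences have no test, since 1 group has a single array in each class, and no share over all genes was taken for them. A fit of the low class alone called Mcm10, with its spread taken from the resting Treg and conventional arrays and activated replicate 3 assumed to vary like them. Without activated replicate 1 limma called no member and 12 genes in all. Leaving out resting replicate 2 left 2 members called, and leaving out activated replicate 2 or 3 left 3 each. Leaving out a conventional T cell array, which enters this comparison through the shared spread, left 2. With the mean of all probe sets of a gene, Mcm10, Pole2, Rfc4 and Mcm6 were called, and Rrm2 and Mcm5 were not.

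**Figure D2:**
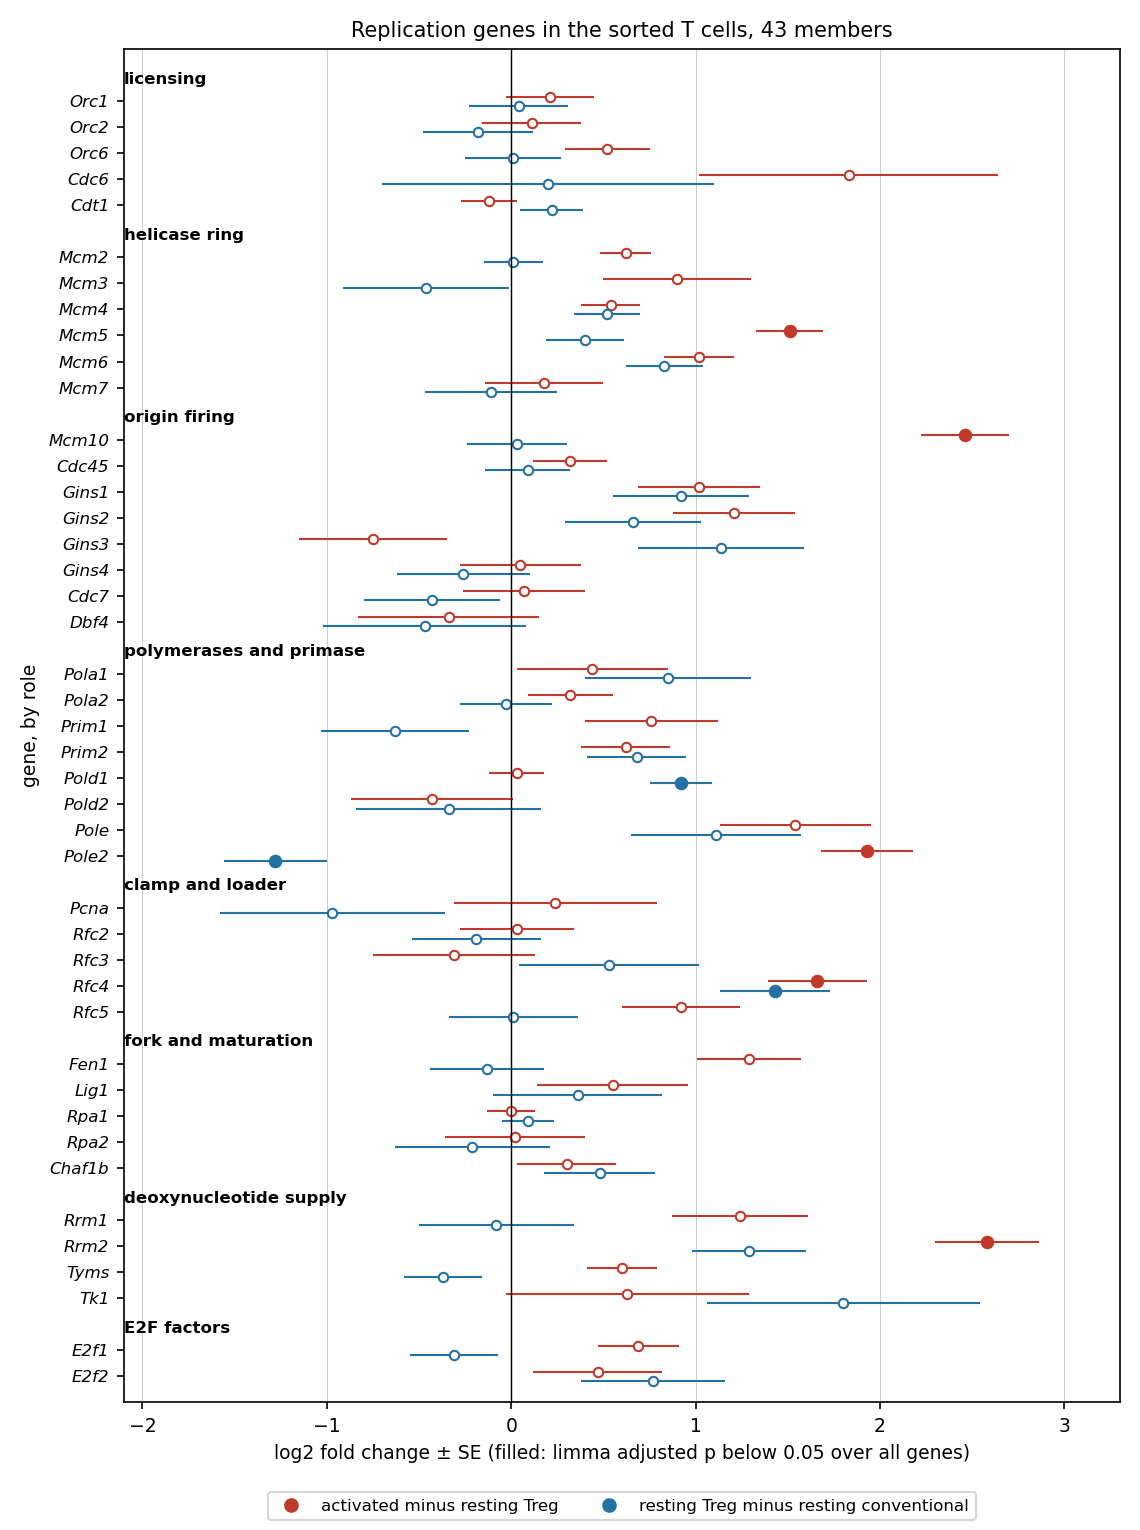
Change in log2 signal (horizontal axis, ± SE) of the 43 members, grouped by their step in replication, for activated minus resting Treg (red) and resting Treg minus resting conventional T cells (blue); filled points are called by limma. The 5 called members of the first contrast lie between 1.51 and 2.58, and Pole2 is called in both contrasts with opposite signs, which share the resting Treg arrays.

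Activated Treg also had more RNA of other genes of the fork. Of 34 other replication genes Uhrf1, which carries DNA methylation to new strands, was higher by 2.87 ± 0.25, and Clspn, the fork checkpoint adaptor claspin, by 2.41 ± 0.26, and none was lower. Of 11 other genes of the E2F network E2f8, a repressor made in S phase, rose by 2.25 ± 0.28, and Tfdp1, the DNA-binding partner of E2F1, by 1.34 ± 0.18. The E2F network list did not rise as a whole, with 6 of 11 negative and a median of -0.12. Of 27 other nucleotide synthesis genes none was called and 7 had an unadjusted p under 0.05, a threshold passed by 11.5% of all genes. Their median was 0.25.

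Among markers of other cells, none of 12 myeloid and none of 7 B cell genes was called between activated and resting Treg. The mean of the myeloid list was 5.81 to 6.71 over activated arrays and 5.47 to 6.03 over resting Treg arrays, and that of the B cell list was 5.03 to 5.75 over activated and 5.19 to 5.83 over resting arrays. Their part in the results was not tested.

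Unstimulated cells of both lineages were set against each other to ask how Treg differ from conventional T cells at rest. These groups also differed in the CD45RB gate of the sort, low in Treg and high in conventional T cells. Lineage and gate cannot be told apart here. Resting Treg had more RNA of the clamp loader gene Rfc4 and of Pold1, the catalytic subunit of polymerase delta, and less of Pole2. The other 40 members were not called, and the median of all 43 was 0.04, against 0.01 over all genes. Over all genes 3.87% were called higher and 1.67% lower. With 2 of 43 members higher and 1 lower, the calls lay near those shares and are not read as a result about the members. This comparison shares the resting Treg arrays with the one above.

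Rfc4 had log2 signals of 7.90, 7.26 and 8.18 in resting Treg and 6.12 and 6.59 in conventional T cells (1.43 ± 0.30, adjusted p = 0.0314). Pold1 had 9.82, 9.90 and 10.01 in resting Treg and 8.85 and 9.12 in conventional T cells (0.92 ± 0.17, adjusted p = 0.0188). Its activated values were 10.12, 9.90 and 9.81, so Pold1 separated both Treg groups from conventional T cells and not activated from resting Treg (0.03). Pole2 had 5.97, 6.43 and 6.84 in resting Treg, against 7.65 and 7.73 in conventional T cells (-1.28 ± 0.28, adjusted p = 0.0373). Resting Treg were thus the lowest of the 3 groups for this gene, and activated Treg the highest. The largest change of all 43 was that of the thymidine kinase gene Tk1 (1.80 ± 0.74), which was not called, and neither were Rrm2 (1.29 ± 0.31, adjusted p = 0.0550) and the GINS subunit gene Gins3 (1.14 ± 0.45). Rrm2 was stepped over the groups, with 6.42 and 6.86 in conventional T cells below all resting Treg arrays.

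All resting Treg arrays lay above both conventional arrays for 16 of 43 members (37.2%), against 21.6% of all genes, and below for 4 (9.30%), Mcm3, Cdc7, Pcna and Pole2, against 20.4% of all genes. None of the 3 calls was kept when either conventional array was left out, 1 was kept without resting replicate 1 (Pold1) or 2 (Rfc4), and 1 member, Pole2, was called with the mean of all probe sets of a gene. In the low Actb class the median member difference was 0.14, and with the class as a block 8 members were called, 7 higher and Pole2 lower. Calls over all genes rose with the block as well. None of 34 other replication genes was called (5 at an unadjusted p under 0.05, against 17.9% of all genes). Of 27 other nucleotide genes Atic (-1.07 ± 0.19) and Impdh1 (-0.71 ± 0.17), both of purine synthesis, were lower. Of 11 other E2F network genes E2f5 was lower (-2.58 ± 0.50), while 7 were positive and none was called higher. Of 7 B cell markers Cd79b (2.85) and Cd79a (0.73) were higher in resting Treg, and of 5 CD8 and NK cell markers Klrd1 was lower (-4.73), and their part was not tested. The mean of the B cell list was 5.19 to 5.83 over resting Treg arrays and 4.51 to 4.64 over conventional ones, that of the CD8 and NK list 5.3 to 5.5 and, in conventional T cells, 6.46 to 6.54.

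Activated Treg and resting conventional T cells differed in lineage, in the CD45RB gate of the sort and in stimulation. Of the 43 members 12 were called higher and none lower, where 5.93% of all genes were called higher and 3.77% lower. This contrast shares arrays with the others. The median of the members was 0.63, with 35 of 43 positive. Rrm2 had the largest value, 3.87 ± 0.31, with 10.83, 9.99 and 10.70 in activated Treg and 6.42 and 6.86 in conventional T cells (adjusted p = 0.000225). Rfc4 followed at 3.09 ± 0.30, with 9.55, 9.63 and 9.14 in activated Treg and 6.12 and 6.59 in conventional T cells. Pole, the catalytic subunit of polymerase epsilon, was higher by 2.66 ± 0.46, with 7.81, 7.92 and 8.69 in activated Treg and 5.29 and 5.68 in conventional T cells. No pair of groups overlapped in these 3 genes.

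Mcm10 was higher by 2.49 ± 0.27 in activated Treg than in conventional T cells. Of the helicase ring 4 of 6 genes rose: Mcm5 by 1.90 ± 0.21, Mcm6 by 1.85 ± 0.21, Mcm4 by 1.06 ± 0.18 and Mcm2 by 0.63 ± 0.16 (adjusted p = 0.0429). Under the alternatives run, Mcm2 was called with array weights and without activated replicate 3 and under no other. The GINS genes Gins1 (1.94 ± 0.37) and Gins2 (1.87 ± 0.37) rose as well, and so did the large primase subunit gene Prim2 (1.30 ± 0.27) and Pold1 (0.96 ± 0.17). All activated arrays lay above both conventional ones for 28 members (65.1%), against 21.4% of all genes. In the low Actb class, with activated replicate 3 alone against the conventional arrays, 42 of 43 members were positive, with a median of 0.82. This difference has no test, and no share over all genes was taken for it. The list's counts were 22 with the class as a block, 5 without either conventional array and 27 with array weights, where 4 of the 27 were lower. Calls over all genes rose with array weights as well, so these counts are not read as a result about the members. Centring each array on its median moved the median of all genes by -0.18 here and by -0.10 for resting Treg against conventional T cells, and 11 members remained called here.

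Of 34 other replication genes 7 were higher in activated Treg than in conventional T cells: Uhrf1 (3.47), Clspn (2.44), the nuclease genes Dna2 (1.55) and Exo1 (1.49), Gmnn (1.30), which encodes the licensing inhibitor geminin, Ticrr (1.2) and the helicase gene Recql4 (0.83). Of 27 nucleotide genes 5 were higher, Umps (1.77), Mthfd2 (1.71), Shmt1 (1.09), Dtymk (1.09) and Ctps2 (0.92), and Impdh1 was lower (-0.97). That nucleotide list had 15 of 27 negative and a median of -0.08. Of 11 other E2F network genes E2f3 (2.29), E2f8 (2.28) and Tfdp1 (1.51) were higher, while 6 were negative and the median was -0.04. Lyz1, a myeloid marker, was higher by 3.33 and Cd79b by 2.56, Klrd1 was lower (-6.69), and their part in the results was not tested.

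**Figure D3:**
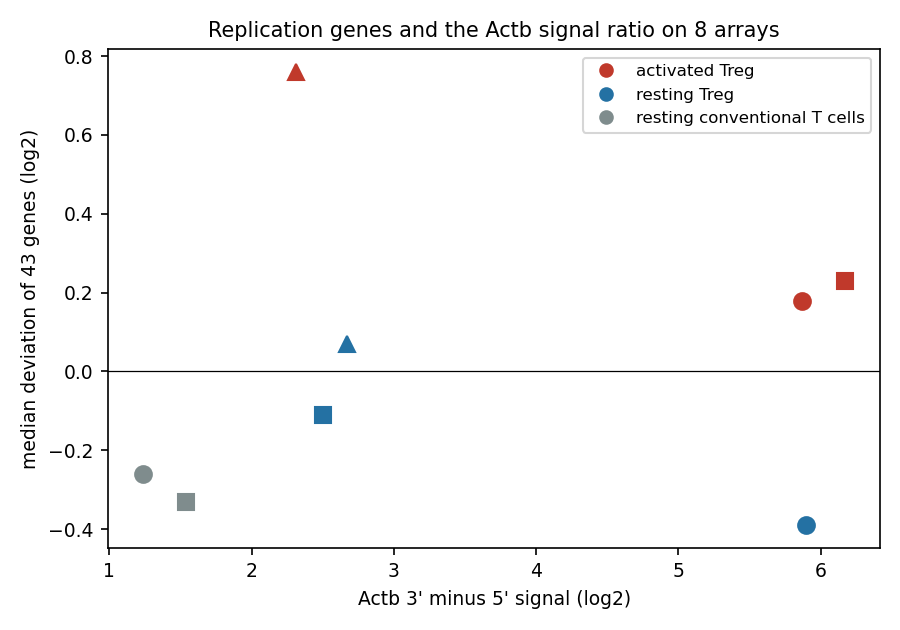
For each of the 8 sorted arrays, the median over the 43 members of the deviation from each gene's mean over the arrays (vertical axis, log2) against the Actb 3' minus 5' signal (horizontal axis, log2), with group by colour and replicate by symbol. At both ends of the horizontal axis the activated Treg arrays (0.18, 0.23 and 0.76) lie above the resting Treg arrays (-0.39, -0.11 and 0.07), and the conventional arrays are at -0.26 and -0.33.

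Within the Treg, 9 members had all 3 arrays of the high Actb class below all 3 of the low class: Mcm7, Cdc7, Dbf4, Gins3, Pcna, Rfc2, Pold2, Rpa1 and Rpa2. Cdc45 and Orc6 had the reverse. Over all genes these shares were 14.3% and 14.4%. Pcna, the clamp, had log2 signals of 10.77, 10.95 and 12.84 in activated Treg, against 10.52, 11.78 and 11.53 in resting Treg. Its groups overlapped, with a difference of 0.24 ± 0.55, and Pcna was not called in any comparison.

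In the ligand experiment Treg of each genotype were stimulated with Sema4a-Ig or IgG1 to ask what the ligand changes and whether that needs Nrp1. With Sema4a-Ig nearly all replication genes had a lower value in both genotypes. The median over the 43 members was -0.18 in KO and -0.29 in WT, with 41 of 43 negative in each, against medians of -0.02 and -0.01 over all genes. In KO no member was called and in WT 2 were, Cdc6 and Rrm1. The difference between the genotypes was not called for any member.

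In KO Treg limma called 0 of 17097 genes (0.0%), and 1787 genes (10.5%) had an unadjusted p under 0.05, among them 16 of the 43 members. The largest values, none of them called, were Gins1 (-0.42 ± 0.16), Pole (-0.42 ± 0.12), Mcm3 (-0.39 ± 0.13), Mcm10 (-0.37 ± 0.14), Orc1 (-0.36 ± 0.15) and Pold2 (-0.34 ± 0.10), with adjusted p between 0.378 and 0.446. For Gins1, a GINS subunit gene, the pair differences in KO ran from -1.10 to 0.07 with a median of -0.26, and 7 of 8 were negative. For Pole they ran from -0.91 to 0.06 with a median of -0.27, and 7 of 8 were negative. Orc1, the largest subunit of the origin recognition complex, was lower in 8 of 8 KO pairs, from -0.88 to -0.08. Mcm4 and Prim2 were also lower in all 8, and these 3 are 6.98% of the members, against 1.66% of all genes. Rpa1 (0.00) was again the smallest value, and E2f1 (0.13) and E2f2 (0.12) were the positive ones. Of 31 other replication genes, 25 other nucleotide genes and 11 other E2F network genes none was called, with 5, 13 and 1 at an unadjusted p under 0.05.

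In WT Treg 2.88% of all genes were called lower and 2.91% higher. The 2 of 43 members called, both lower, lay near that share. Cdc6, the loader of the ring in G1, had mean log2 signals of 7.01 with Sema4a-Ig and 7.59 with IgG1. Its pair differences ran from -1.10 to -0.23 with a median of -0.45, so all 8 were negative. The mean change was -0.58 ± 0.15 (adjusted p = 0.0286). Rrm1, the large subunit of ribonucleotide reductase, had 9.24 with Sema4a-Ig and 9.60 with IgG1. Its differences ran from -0.85 to 0.04 with a median of -0.30, and 7 of 8 were negative (-0.35 ± 0.10, adjusted p = 0.0464). As every pair had been set to a common mean, the levels of Cdc6 and Rrm1 only restate these differences. The 4 largest changes among the members not called, all larger than that of Rrm1, were Gins1 (-0.53 ± 0.16, adjusted p = 0.0501), Orc1 (-0.50 ± 0.15, 0.0515), the chromatin assembly gene Chaf1b (-0.47 ± 0.16, 0.0903) and Gins2 (-0.45 ± 0.13, 0.0501). Several other members lay as near the threshold, so the count of 2 is sensitive to it: 30 of the 43 members had an unadjusted p under 0.05, against 21.1% of all genes. Cdc6, Gins4, Rfc5 and Pold2 were lower in all 8 WT pairs, which is 9.30% of the members, against 4.36% of all genes.

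By step, the WT values of the 6 ring genes were -0.37 to -0.17, of the 8 polymerase and primase genes -0.39 to -0.12 and of the 8 genes of origin firing -0.53 to -0.07. The 4 deoxynucleotide genes lay within -0.36 to -0.33, the narrowest range of any step with over 2 genes. The clamp and loader gave -0.29 to -0.09. Rpa1 (0.04) and E2f2 (0.05) were the positive members. In KO the same steps gave -0.39 to -0.11 for the ring, -0.42 to -0.12 for the polymerases and -0.33 to -0.12 for deoxynucleotide supply.

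**Figure D4:**
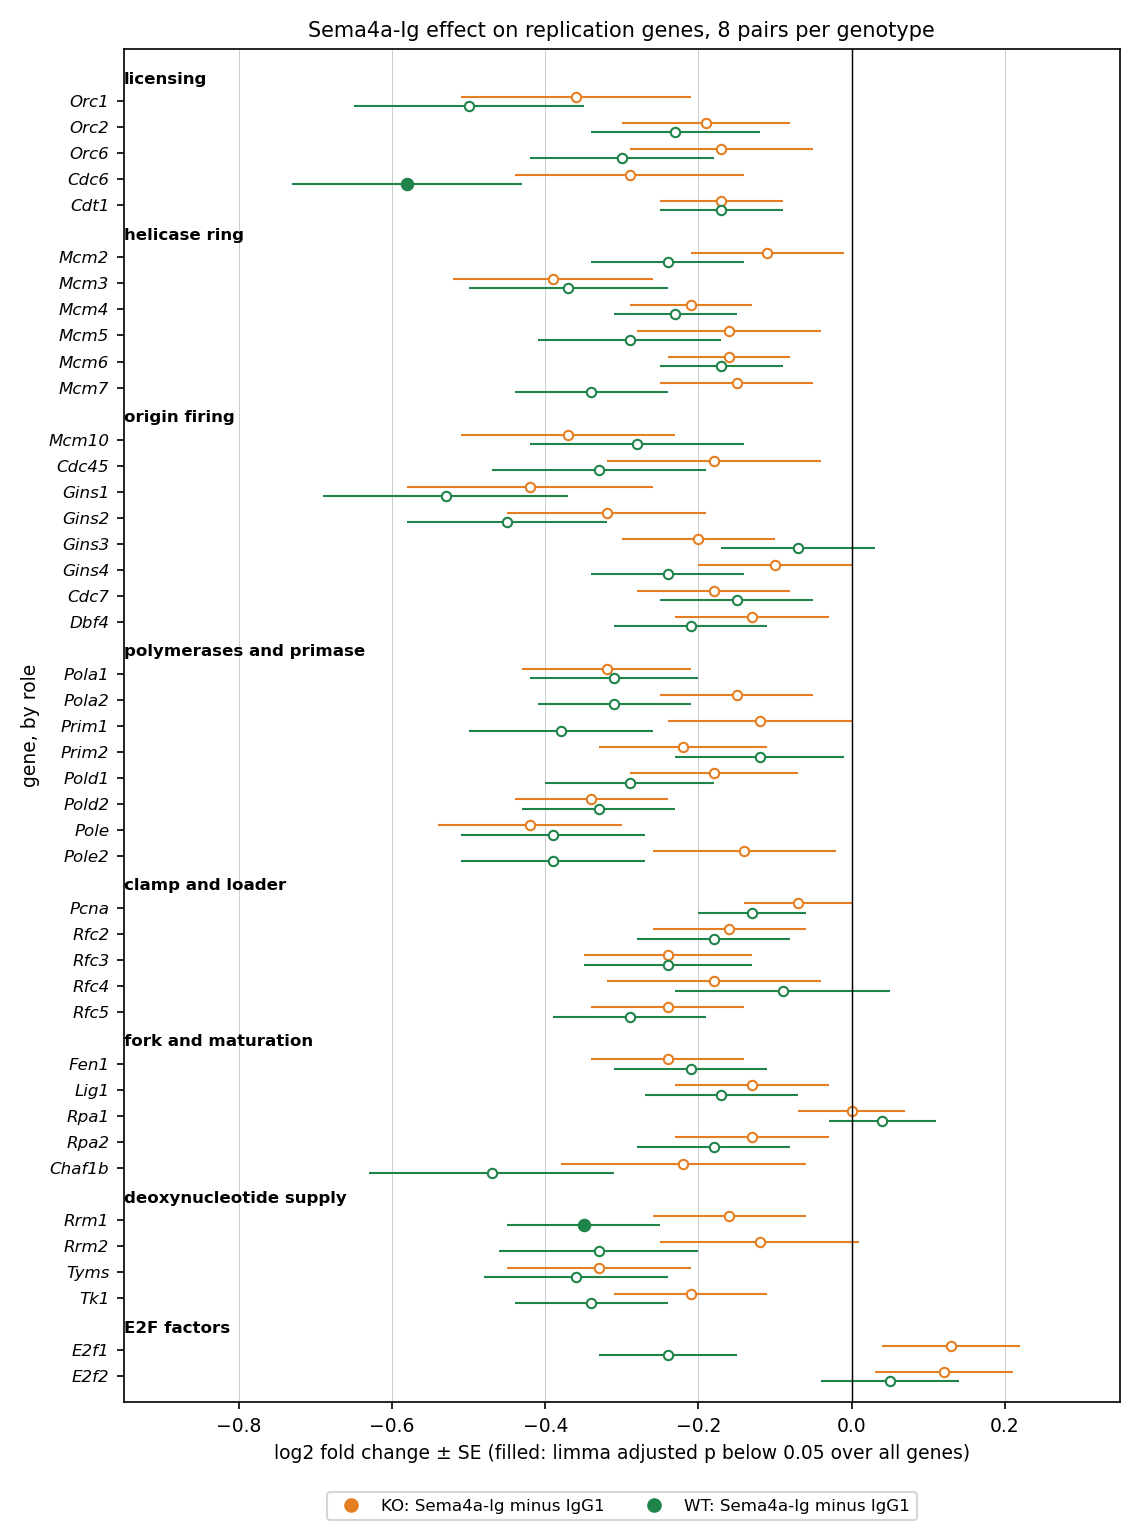
Sema4a-Ig minus IgG1 difference in log2 signal (horizontal axis, mean of 8 pairs ± SE) of the 43 members by their step in replication, in KO (orange) and WT (green); filled points are called by limma. The filled points are Cdc6 (-0.58) and Rrm1 (-0.35) in WT, and 41 of 43 members are below 0 in each genotype.

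Other genes of nucleotide supply moved in WT in both directions. Of 25 measured, 6 were lower: Pfas (-0.52 ± 0.14) and Gart (-0.43 ± 0.12) of purine synthesis, Ctps (-0.49 ± 0.14), Dhodh (-0.44 ± 0.11) and Umps (-0.42 ± 0.10) of pyrimidine synthesis, and Shmt2 (-0.48 ± 0.11), which feeds folate carbon in mitochondria. Higher were 3: Samhd1 (0.60 ± 0.09), whose enzyme breaks deoxynucleotides down, the mitochondrial thymidine kinase gene Tk2 (0.46 ± 0.11) and Ctps2 (0.37 ± 0.08). Of 31 other replication genes the helicase genes Recql4 (-0.52 ± 0.10) and Mcm8 (-0.39 ± 0.11) were lower, and of 11 other E2F network genes none was called (6 at an unadjusted p under 0.05).

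The size of the shift differed between pairs. In KO the median member difference was -0.71 in replicate 3 and -0.36 in replicate 2, and between -0.16 and 0.01 in the other 6. In WT it was -0.79 in replicate 3, -0.57 in replicate 1, -0.27 in replicates 2 and 7, and between -0.12 and -0.01 in the other 4. Replicate 3 was the lowest pair in both genotypes, with 42 of 43 members below 0 in each. The spread over all genes was also wider in replicates 1 to 3 (SD 0.34 to 0.50) than in replicates 4 to 8 (0.21 to 0.32).

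**Figure D5:**
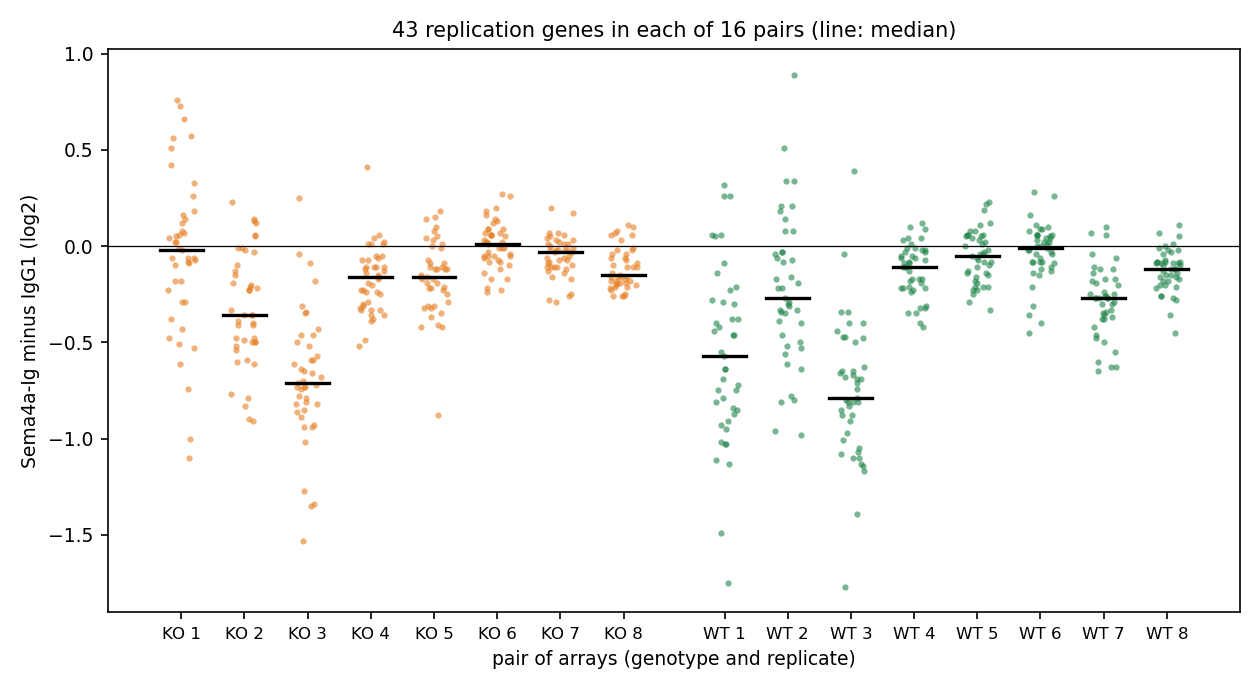
Sema4a-Ig minus IgG1 difference in log2 signal (vertical axis) of each of the 43 members in every pair, KO replicates 1 to 8 and then WT replicates 1 to 8; lines mark the median. Replicate 3 has the lowest median in both genotypes (-0.71 in KO and -0.79 in WT), and replicate 6 has medians near 0 (0.01 in KO and -0.01 in WT).

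Without the replicate 3 pairs the median of the members was -0.12 in KO, with 40 of 43 negative, and -0.21 in WT, with 40 of 43 negative. Cdc6 was then called in WT (-0.50, adjusted p = 0.0248), Rrm1 was not (-0.29, adjusted p = 0.0983), and no member was called in KO. Among the nucleotide genes Shmt2, Dhodh, Samhd1, Tk2 and Ctps2 remained called in WT without replicate 3, while Ctps, Umps, Gart and Pfas did not. Among the other replication genes Recql4 remained called (-0.49, adjusted p = 0.00386) and Mcm8 did not (-0.31, adjusted p = 0.147). With replicates 4 to 8 alone the medians were -0.10 in KO (39 of 43 negative) and -0.12 in WT (41 of 43 negative), and no member was called. Without WT replicate 2, the pair whose labels disagree, the WT median stayed at -0.29, with 42 of 43 negative. Cdc6 (-0.57, adjusted p = 0.0571) and Rrm1 (-0.34, adjusted p = 0.0883) then missed the threshold and Prim1 alone was called.

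Leaving out WT replicate 3 or WT replicate 7 left no member called in WT, and leaving out KO replicate 3, which enters through the shared spread, gave 13. Calls over all genes in WT ran from 258 to 1328 when single pairs were left out, so these counts are not read as a result about the members. Without WT replicate 1 the called members were E2f1 and Orc1. Cdc6 kept its call when WT replicate 4, 5, 6 or 8 or any single KO pair was left out. Myeloid markers moved with the treatment in WT. Of 12, 10 were positive and 3 were called, Lyz2 (0.81), Tyrobp (0.39) and Ctss (0.37), and the mean of the list ran from -0.18 to 0.47 over WT pairs. In KO none was called and the mean ran from -0.12 to 0.21. Of 7 B cell markers Cd79b (0.35) was also called higher in WT, with 4 positive and 3 negative. Of 5 erythroid markers Klf1 was called lower there (-0.30), with 3 positive and 2 negative. Of 6 Treg genes 5 were positive and 2 were called higher in WT. With the myeloid mean of each pair as a covariate no member was called in WT (Cdc6 -0.49, Rrm1 -0.28), and 1 gene in all. The myeloid mean was 0.34 in WT replicate 3 and -0.06 in KO replicate 3, the pairs with the lowest member medians. It was highest in WT replicate 7 (0.47), where 40 of 43 members were negative. Beyond the covariate fit the part of the myeloid markers in the result was not tested.

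Whether the effect of Sema4a-Ig on these genes depends on the genotype was tested as the difference of the pair means, KO minus WT. Limma called 0 of 17097 genes (0.0%), with 1015 genes (5.94%) at an unadjusted p under 0.05, 1 of them a member. That member was E2f1, an activating E2F factor. Its pair differences in KO ran from -0.14 to 0.57 with a median of 0.10 and 2 of 8 negative, while those in WT ran from -0.60 to 0.26 with a median of -0.29 and 7 of 8 negative. The genotypes overlapped, and the difference was 0.37 ± 0.13 (adjusted p = 0.758). Cdc6, called in WT, ran from -1.53 to 0.33 in KO with 5 of 8 negative. Its mean change was -0.29 in KO and -0.58 in WT, a difference of 0.28 ± 0.21 (adjusted p = 0.916). The KO low of -1.53 was replicate 3, and without the replicate 3 pairs the mean change of Cdc6 was -0.12 in KO and -0.50 in WT, a difference of 0.38 (adjusted p = 0.829). That of E2f1 was then 0.11 in KO and -0.21 in WT, a difference of 0.32 (adjusted p = 0.829). These 2 members were then the ones with an unadjusted p under 0.05. Prim1 (0.25 ± 0.17), Pole2 (0.25 ± 0.17), Chaf1b (0.24 ± 0.23) and Rrm2 (0.21 ± 0.18) came next, none of them called. The median difference over the 43 members was 0.06, with 31 positive. Without the replicate 3 pairs of both genotypes it was also 0.06, with 12 of 43 negative, as in all pairs. Leaving out 1 replicate 3 pair alone gave 0.14 without that of KO and -0.01 without that of WT. No member was thus shown to respond differently in the genotypes, and these data do not show that the genotypes respond alike.

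Other probe sets of the same genes were read as a check. In the sorted experiment 34 members had 52 further probe sets and in the ligand experiment 27 had 35. None was called in the direction opposite to a called member. E2f2 and Rfc2 (activated Treg against conventional T cells) and Gins3, Orc2 and Rrm2 (Sema4a-Ig in WT) were called by another probe set and not by the one used.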

How the data were processed

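The members, their steps and the other gene lists were chosen with earlier results of these data known. Affymetrix arrays of 2 types were used: 8 for the sorted T cells and 32 for the ligand experiment. The deposited values are log2 signals per probe set, made with RMA and Partek 6.6 per the submitters' processing notes, and the sources used here name no other step. RMA adjusts background and scales arrays to a common distribution, so a shift of most genes would be removed. The number of arrays limits the precision.

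Probe sets naming 1 gene were kept (34945 of 45101 and 28898 of 45141, 932 and 551 naming several genes, the rest unnamed or array controls), with symbols updated through Entrez identifiers from RefSeq GRCm38.p6. Each gene took its probe set with the highest mean. Groups came from the sample titles. limma 3.58.1 in R 4.3.3 (lmFit, eBayes, two-sided) fitted 3 group means to the 8 sorted arrays (5 residual degrees of freedom), and a mean per genotype to the 16 pair differences (14). Pairs are arrays of 1 genotype with neighbouring title codes, which the common pair means bear out. Benjamini-Hochberg adjustment ran over all genes at a threshold of 0.05. Code was tested on simulated data. Genes were named by a rule: the called members, up to 12, or else the largest changes until 6 were named, plus the smallest changes and the called genes of the other lists. Promoters were those of members called in the most comparisons, ties going to the larger change between activated and resting Treg, where RefSeq had a window. Names added for a step or for arrays that did not overlap were chosen after their values were seen. Alternatives were the mean of all probe sets, a minimum mean log2 signal of 5, centring, an intensity trend, array weights, blocks or covariates for Actb and myeloid markers, the replicate block, and leaving out arrays or pairs. Tables and figures used Python 3.11.15 with pandas 2.3.3, numpy 2.4.6 and matplotlib 3.10.9.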

Additional observations from a re-analysis of the deposited data

Results flagged for a closer look

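In 13 of 88 sets of 8 pair differences (43 members and their median, in 2 genotypes), 1 pair lay far from the other 7. Chance alone flags about 1 in 20 such sets if they are independent. These sets share the same pairs, so the 13 cannot be compared with that rate. In KO replicate 3 the Sema4a-Ig minus IgG1 difference was -0.78 for Mcm2, -1.35 for Mcm10, -0.68 for Prim2, -0.64 for Pold1, -0.81 for Lig1, -0.73 for Rrm1, -1.27 for Tyms and -1.34 for Chaf1b, each below the other 7 KO pairs. In KO replicate 1 Gins4 was at 0.51, above the other 7, which were all negative. In WT replicate 3 it was -0.81 for Gins3, -0.81 for Rfc5 and -1.05 for Tk1, and in WT replicate 1 it was -0.87 for Gins4, each below the other 7 WT pairs. In all, 11 of the 13 were in a replicate 3 pair. The lowest of the other KO pairs was -0.26 for Chaf1b and -0.15 for Mcm2. The median over the members was not among the 13 in either genotype.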

How the results depend on the processing

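Members called for activated against resting Treg numbered 10 with array weights, 11 with the Actb class as a block and 1 in the low class alone (genes called 946, 317 and 24), and genes called 229 with the replicate block by accession order, which paired nothing in the labels. For resting Treg against conventional T cells they numbered 1 with the mean of all probe sets, 11 with weights (3005 genes) and 8 with the block (1633 genes). For activated Treg against conventional T cells they numbered 27 with weights (5889 genes), 22 with the block, and 871 genes were called in the low class. For Sema4a-Ig in WT they numbered 7 with all probe sets, 17 with the signal minimum (1688 genes), 1 with centring, 15 with the intensity trend, 0 with the myeloid covariate (1 gene) and 0 with replicates 4 to 8 (150 genes). With no replicate block, a fit that takes the paired arrays as independent, they numbered 34 in WT (4417 genes), 15 in KO (1734 genes) and 1 for the difference (530 genes). Calls over all genes changed with the setting too, so the member counts of this section are not read as a result about the members.

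Leaving out single arrays gave 0 to 7 members (12 to 168 genes), 0 to 3 (242 to 1208) and 5 to 14 (433 to 2263) in the sorted comparisons. Leaving out single pairs gave 0 to 13 (258 to 1328) in WT, and 0 members and genes in KO and for the difference. Of 1505 values of named genes under an alternative, 1201 kept direction and side of the threshold, 257 lost the call, 44 gained it and 3 reversed: Prim1 (0), Pole2 (-0.034) and Chaf1b (-0.052) for the difference with replicates 4 to 8. The low class and replicates 4 to 8 alone were chosen after seeing the data. The low class holds 1 activated array, assumed to vary like the other groups. The causes were not tested.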
